A study of Mus musculus with 9 samples.

Results

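Hippocampal RNA of mice that ate green soybean extract was set against that of control mice across the whole transcriptome, with bright and dim probe sets kept apart. A probe set is the group of short array sequences that reports 1 transcript. Of 34760 deposited probe sets, 6573 control-type probe sets were left out, and of the other 28187, 22610 held no exact 0 on the 6 arrays and were tested. An exact 0 was read as no value. The tested probe sets comprised 10627 bright, 10626 dim and 1357 whose control mean was 0, and 18256 of the 22610 carried exactly 1 gene symbol. Bright and dim were parted at the median of the mean scores over the 6 arrays, 0.150. The 3 dim probe sets nearest to it averaged 0.1497, 0.1499 and 0.1500, and the 2 nearest bright ones averaged 0.1500 and 0.1501.

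Green soybean mice and control mice were male SAMP10/TaSlc, an inbred strain prone to accelerated senescence and early brain ageing, and all groups shared that background. Green soybean mice received CE-2 chow with 3.0% green soybean extract, and control mice CE-2 chow alone, from 1 to 12 months of age. The study kept 5 diet groups of 12 mice, 6 to a cage, and 3 arrays stood for each diet. The labels leave unstated whether an array carried RNA of 1 mouse or of several, so p-values here measure the spread between these samples, which may be technical. Cages are not named either, and cage and diet cannot be told apart. Array titles read SMP30 where the strain label reads SAMP10, and the strain label was followed.

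The hippocampus forms and retrieves memories through a relay of dentate granule cells and cornu ammonis pyramidal cells, and its neurons spend much of their energy on ion pumping and synaptic transmission, fuelled by mitochondrial ATP. Bursts of neuronal firing switch on activity-regulated genes such as Fos, Arc and Egr2 within minutes. Soybean supplies isoflavones, plant phenols that bind oestrogen receptors, and the series title links the green extract to cognition and to amyloid beta, the peptide cut from the amyloid precursor protein.

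Levels are in the z-type score that the authors deposited, on which 0 lies near the middle of an array, and every difference is green soybean minus control in score units. If the score rests on logarithms of base 10, which no source states, 0.1 unit is about 1.18-fold. The median standard error of a difference was 0.0637 units. Green soybean replicate 3 stood apart. Over bright probe sets its mean correlation with the other 5 arrays was 0.936, against 0.963 to 0.972 for the others, and over dim probe sets it was 0.745, against 0.821 to 0.846. Values without it are given where they alter a result. Markers of the labelled tissue were bright. Of 13 probe sets for dentate granule cells 9 were bright, and of 19 for cornu ammonis pyramidal cells 16 were bright. Wfs1, a marker of the CA1 field, scored 1.72, 1.67 and 1.22 with green soybean and 1.45, 1.56 and 1.64 in controls. Prox1, the transcription factor of granule cells, scored 0.982, 0.825 and 0.604 with green soybean and 0.916, 0.740 and 0.657 in controls. In bulk tissue, fewer cells of a type and less RNA per cell cannot be told apart.

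No probe set differed between the diets after adjustment. Limma called 0 of 22610 at an adjusted p below 0.05 (0.0%), and the lowest adjusted p was 0.108. By unadjusted limma p, 2070 probe sets were below 0.05 (9.16%), 1792 of them higher with green soybean (7.93%) and 278 lower (1.23%). All 3 green soybean arrays lay above all 3 controls in 2990 probe sets (13.2%) and below them in 597 (2.64%). Bright probe sets held few of them, 337 of 10627 (3.17%), with 227 higher (2.14%) and 110 lower (1.04%). Dim probe sets held 1372 of 10626 (12.9%), with 1278 higher (12.0%) and 94 lower (0.885%). A flat distribution of p would put 5% below that threshold, so the share was under it for bright probe sets and above it for dim ones. Both classes lack the probe sets of control mean 0, which a p-value deposited by the authors had picked out. Neither share is therefore that of an unselected set, and the 5% is only a reference. The bright count was 184 without control replicate 2, 533 without green soybean replicate 2 and 523 without green soybean replicate 3. The dim count was 873 without control replicate 2 and 874 without control replicate 3.

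**Figure D1:**
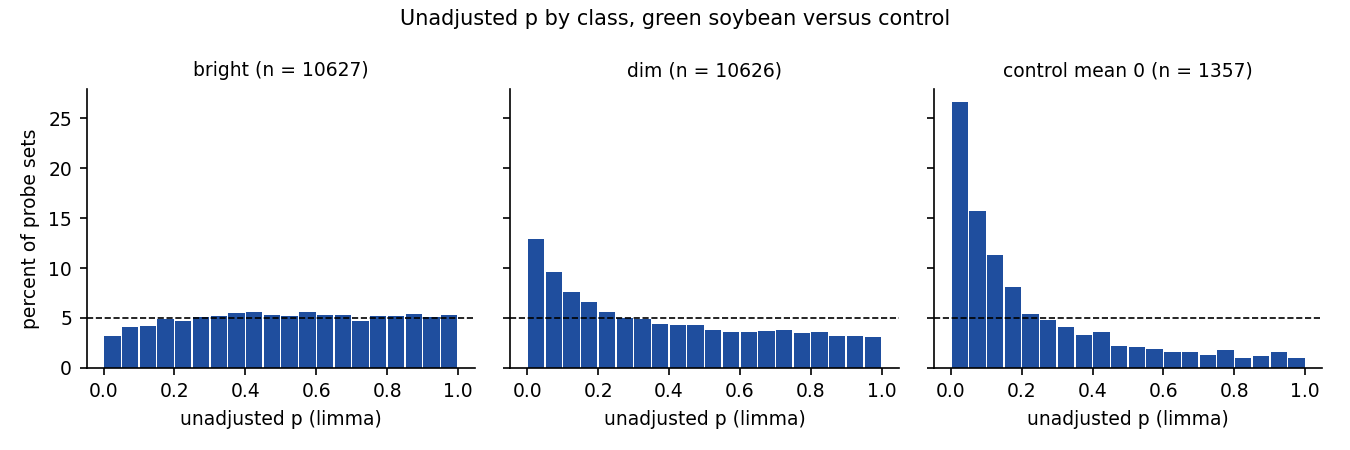
Share of probe sets (percent) by unadjusted limma p, in steps of 0.05, for bright, dim and control-mean-0 probe sets; the dashed line marks the 5% of a flat distribution. The lowest step holds 3.17% of bright, 12.9% of dim and 26.6% of control-mean-0 probe sets. The last class was picked out by the authors' p-value, so none of the 3 is an unselected set.

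The dim class as a whole scored higher with green soybean. The median dim probe set scored -0.207, -0.234 and -0.183 on the 3 green soybean arrays, against -0.266, -0.276 and -0.269 on the 3 control arrays. All 3 green soybean arrays lay above all 3 controls, with an exact permutation p of 0.1, the smallest that 3 against 3 arrays allow. The median bright probe set scored 0.669, 0.641 and 0.604 with green soybean, against 0.645, 0.614 and 0.644 in controls, and these overlapped (exact permutation p = 1.0). Per probe set, the median difference was 0.0552 among dim and 0.00785 among bright probe sets, and 75.8% of dim and 54.9% of bright probe sets were higher. Quantile normalization, which gives every array the same distribution, brought the dim median to 0.00606 and split the dim probe sets of unadjusted p below 0.05 into 391 higher and 361 lower. The bright ones were then 149 higher and 221 lower. With the arrays' bright-class medians aligned instead, 967 of 1074 such dim probe sets were higher, as were 176 of 333 bright ones. That alignment moves all probe sets of an array by the same amount, so the dim class kept its shift against the bright one.

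**Figure D2:**
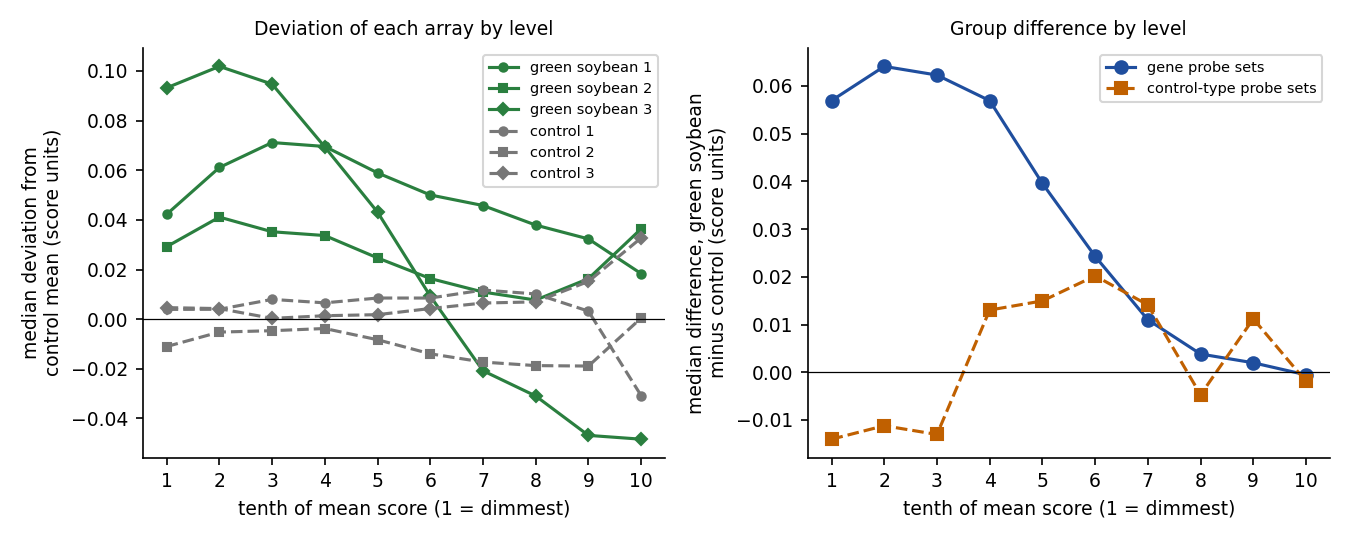
Median score deviation from the control mean for each array (left, score units) and median difference between green soybean and control (right, score units), over 10 bands of mean score from dimmest to brightest. In the 4 dimmest bands the 3 green soybean arrays lie above the 3 controls, and the gene probe sets differ by 0.0569 to 0.0641, while control-type probe sets differ by -0.0140 to 0.0130.

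The shift grew smaller with level. Over 10 bands of mean score the median difference was 0.0569, 0.0641, 0.0623 and 0.0569 in the 4 dimmest and -0.000542 in the brightest. Control-type probe sets of the same dim range did not show it. For 2000 of them the median difference was 0.00286 and 50.3% were higher. Green soybean replicate 3 deviated from the control mean by 0.0932 in the dimmest band and by -0.0483 in the brightest, so it ran upward at the dim end and downward at the bright end. Without it the median difference was 0.0276 among bright and 0.0459 among dim probe sets. Against the 3 yellow soybean arrays, over 9990 dim probe sets scored on all 9 arrays, the green soybean medians were higher by 0.0428 (exact permutation p = 0.1), while yellow soybean exceeded control by 0.0186 (exact permutation p = 0.3).

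Among bright probe sets, those of smallest p that were higher with green soybean included 3 subunits of ATP synthase, the mitochondrial enzyme that makes ATP. Atp5l, its subunit g, scored 0.611, 0.589 and 0.652 with green soybean, against 0.313, 0.352 and 0.367 in controls. Atp5k, its subunit e, scored 0.565, 0.430 and 0.600 with green soybean, against 0.266, 0.243 and 0.334 in controls. Atp5g2, which encodes the membrane ring subunit c, scored 0.675, 0.491 and 0.573 with green soybean, against 0.360, 0.287 and 0.370 in controls. In each of the 3 genes every green soybean array lay above every control. The differences were 0.273 ± 0.0522 (SE, n = 3 and 3), 0.251 ± 0.0623 and 0.241 ± 0.0625, and limma's adjusted p values were 0.408, 0.480 and 0.480. Probe sets here are numbered roughly by chromosome. That of Atp5l stands among those of chromosome 7, whereas the gene lies on chromosome 9. The same kind of mismatch holds for Pebp1, Sumo2, Nfu1 and Uqcrb below, among others. Whether such probe sets report the named gene or a copy of it elsewhere was not tested.

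Pebp1 encodes the Raf kinase inhibitor protein, the precursor of hippocampal cholinergic neurostimulating peptide. It scored 1.23, 1.13 and 1.30 with green soybean, against 0.919, 0.922 and 1.01 in controls. Atp1b3, a beta subunit of the sodium pump, scored 1.67, 1.52 and 1.70 with green soybean, against 1.20, 1.40 and 1.37 in controls. Snrpd1, a core protein of the splicing ribonucleoproteins, scored 0.799, 0.682 and 0.709 with green soybean, against 0.532, 0.548 and 0.447 in controls. The groups did not overlap in any of them, as in 696 bright probe sets that lay above on all 3 arrays (6.55%). The differences were 0.266, 0.304 and 0.221, each with a limma adjusted p of 0.480.

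The bright probe sets of smallest p in the other direction encode parts of the ribosome, nuclear regulators and cell surface proteins. Sumo2, a ubiquitin-like modifier of nuclear proteins, scored 1.08, 1.23 and 1.09 with green soybean, against 1.40, 1.34 and 1.57 in controls. Rpl10, a protein of the large ribosomal subunit, scored 0.806, 0.700 and 0.820 with green soybean, against 1.05, 0.966 and 0.961 in controls. Fbl, fibrillarin, which methylates ribosomal RNA in the nucleolus, scored 0.663, 0.353 and 0.358 with green soybean, against 0.813, 0.702 and 0.703 in controls. All green soybean arrays lay below all controls for these 3 genes, as for 325 bright probe sets (3.06%). The differences were -0.306 ± 0.0735, -0.216 ± 0.0581 and -0.282 ± 0.0851 (SE).

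Cdh11, a mesenchymal cadherin, differed by -0.184 and Apold1, an early response gene of endothelium, by -0.235. Apold1 scored 0.239, -0.0266 and 0.0759 with green soybean, against 0.319, 0.318 and 0.354 in controls, which were nearly level. Rps28, of the small ribosomal subunit, differed by -0.509, but green soybean replicate 3 at -0.303 lay far below replicates 1 and 2 at 0.312 and 0.431, and without it the difference was -0.284. Controls of Rps28 scored 0.661, 0.565 and 0.740. Limma's adjusted p was 0.480 to 0.505 for these 6 lower genes.

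**Figure D3:**
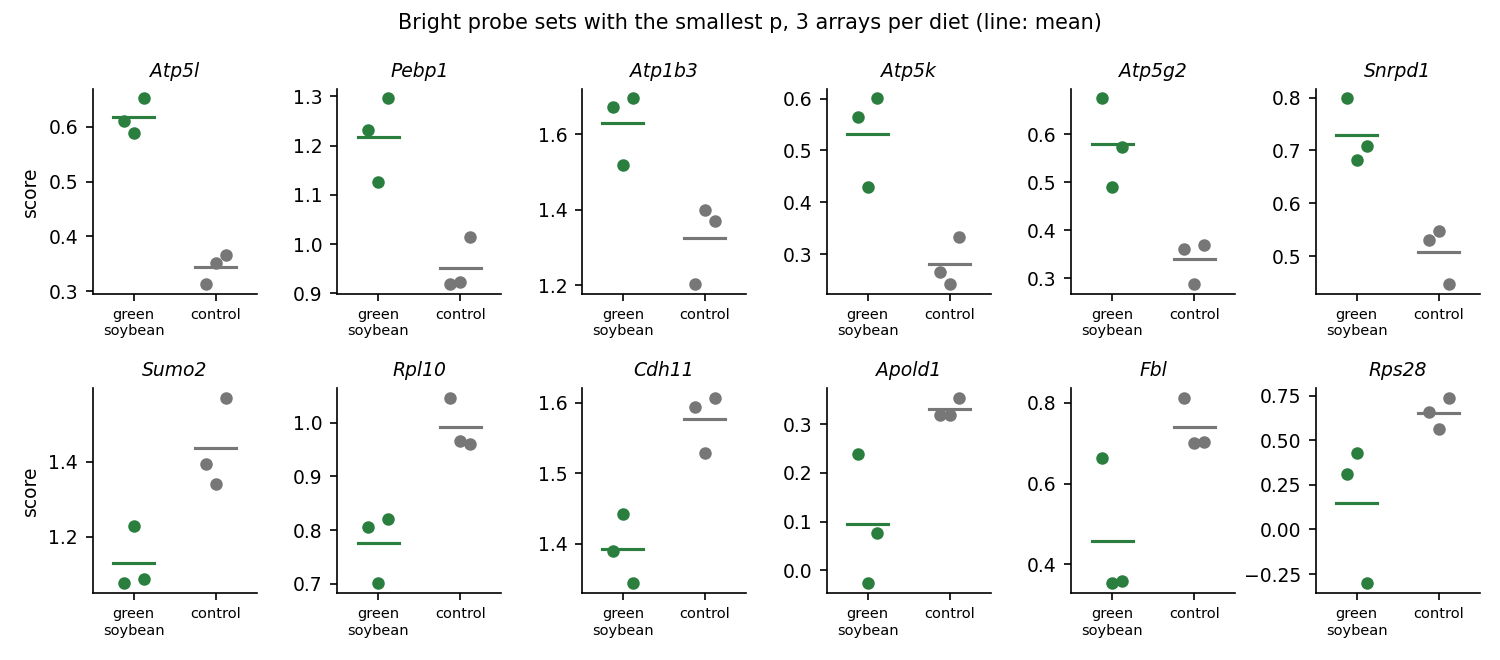
Scores on the 3 green soybean arrays (left) and 3 control arrays (right) of the 6 higher and 6 lower bright probe sets with the smallest p; lines are group means and each panel has its own axis, which does not start at 0. In all 12 panels the groups do not overlap, and Rps28 and Fbl show the widest spread within green soybean.

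The largest bright differences were spread unevenly over the arrays. Ttr, transthyretin, the carrier of thyroid hormone and retinol that choroid plexus secretes and that binds amyloid beta, scored 2.46, 1.08 and 1.41 with green soybean, against 1.78, 0.446 and 1.23 in controls. The difference of 0.497 ± 0.363 (SE) was small beside a spread of over 1 unit within each diet. Uqcrb, a subunit of respiratory complex III, scored -0.109, 1.07 and 1.14 with green soybean, against 0.292, 0.324 and 0.344 in controls. Its difference of 0.378 had a limma adjusted p of 0.680, and without green soybean replicate 1 it was 0.782 with a limma adjusted p of 0.0118, so 1 array set this result.

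Rpl5, a ribosomal protein that carries 5S RNA, differed by 0.380, with replicate 3 at 2.05 against 1.15 and 1.22 on the other green soybean arrays, and by 0.0939 without it. Among lower genes, Srsf5, a splicing regulator, scored 0.846, 0.721 and -0.0626 with green soybean, against 0.813, 0.825 and 0.871 in controls, and its difference was -0.335 with replicate 3 and -0.0532 without. Idi1, an isomerase of cholesterol synthesis, scored 0.584, 0.113 and -0.230 with green soybean, against 0.274, 0.615 and 0.601 in controls, a difference of -0.341.

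Gene lists were read as counts and medians beside those of all bright genes, of which 4721 of 8463 (55.8%) were higher, with a median of 0.00884. Of 73 bright genes for the respiratory chain and ATP synthase, which together turn oxygen consumption into ATP, 55 were higher and 18 lower, with a median of 0.0319. Of their 92 probe sets 7 had an unadjusted limma p below 0.05 and all 7 were higher, beside 3.17% of all bright probe sets below that threshold and 2.14% below it and higher. Beside Atp5l, Atp5k and Atp5g2 these were Cox6a1, Cox8a and Cox5b of cytochrome c oxidase and Uqcrq of complex III. Cox6a1 scored 1.67, 1.64 and 1.93 with green soybean, against 1.25, 1.57 and 1.59 in controls, a difference of 0.275. Uqcrq scored 0.733, 0.931 and 0.673 with green soybean, against 0.630, 0.616 and 0.620 in controls, a difference of 0.157. Cox8a and Cox5b differed by 0.148 and 0.159, and in all 7 the green soybean arrays lay above the controls, as in 12 of the 92 and in 6.55% of all bright probe sets.

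The shift of the respiratory list was small beside the arrays' own spread. The mean score of its 92 bright probe sets was 1.09, 1.17 and 1.13 with green soybean, against 1.03, 1.08 and 1.15 in controls, so the groups overlapped, with control replicate 3 inside the green soybean range. Without green soybean replicate 3, 56 of the 73 genes were higher, as were 6053 of all 8463 bright genes, whose median was then 0.0302 beside 0.0400 for the list. After quantile normalization the probe set median was 0.0256. A separate 10 genes of the list were dim, with a median of 0.0343, below the 0.0562 of all dim genes.

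Other bright lists of mitochondrial and protein turnover also had medians above that of all bright genes. The mean bright scores of these lists overlapped between the diets, as did those of the antioxidant, glycolysis, histone and small nucleolar RNA lists below. Mitochondrial ribosomal proteins were higher in 39 of 59 genes, with a median of 0.0371 and 0 bright probe sets at an unadjusted p below 0.05. Mrps24, of its small subunit, scored 0.574, 0.374 and 0.381 with green soybean, against 0.258, 0.327 and 0.323 in controls. Proteasome subunits, which degrade tagged proteins, were higher in 31 of 42 genes, with a median of 0.0294. Psmb4, a beta subunit of its core, scored above all controls on all 3 green soybean arrays, with a mean of 1.65, against 1.48 in controls, and differed by 0.168 (limma adjusted p = 0.516).

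Antioxidant and glutathione genes, which remove peroxides and oxidized thiols, were higher in 19 of 24 bright genes, with a median of 0.0391. Gpx1, glutathione peroxidase, scored 0.728, 0.628 and 0.417 with green soybean, against 0.382, 0.258 and 0.446 in controls, so replicate 3 overlapped the controls. It was the only member of its list below an unadjusted p of 0.05, with a difference of 0.229 and a limma adjusted p of 0.509. Prdx1, a peroxiredoxin, differed by 0.127. Txn1, thioredoxin, differed by 0.321 because control replicate 1 scored 1.28 beside 2.29 and 2.37 on the other controls, while green soybean arrays scored 2.17, 2.40 and 2.34.

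Glycolysis genes were higher in 10 of 18, with a median of 0.0402. Pkm, the pyruvate kinase that ends the pathway, scored 1.99, 1.95 and 2.03 with green soybean, against 1.64, 1.83 and 1.93 in controls, a difference of 0.188. Pfkm, a phosphofructokinase, scored 1.49, 1.53 and 1.51 with green soybean, against 1.45, 1.44 and 1.43 in controls. Histone genes were higher in 10 of 13, with a median of 0.0397. Small nucleolar RNA genes, guides of ribosomal RNA modification, were higher in 9 of 15, with a median of 0.0305, and Snora3 differed by 0.213.

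The cytosolic ribosome showed no common direction. Of 54 bright genes 27 were higher and 27 lower, with a median of 0.000994, and 4 probe sets were higher and 6 lower at an unadjusted p below 0.05. Different probe sets annotated to the same gene disagreed. Rps25 had a probe set at 0.205 and another at -0.172, and Rpl13 had dim ones at 0.354 and -0.349. Probe sets of this family can report processed copies of the gene elsewhere in the genome, which was not tested. The bright Rps12 probe sets did lean the same way, at 0.353, 0.136, 0.129, 0.0530 and 0.0268. Of 837 genes with over 1 tested probe set, 444 had the same sign on all of them.

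Translation factors were higher in 27 of 50 bright genes, with a median of 0.0108 that turned to -0.00312 over probe sets after quantile normalization. Eif5, which helps select the start codon, scored 1.41, 1.44 and 1.43 with green soybean, against 1.30, 1.32 and 1.32 in controls, a small difference of 0.115 with little spread. Splicing factors were even, with 33 of 65 higher and a median of 0.000619. Within them Srsf10 differed by 0.187 and Snrpd1 by 0.221, while U2af1 differed by -0.271.

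Heat shock genes, the cytosolic and mitochondrial chaperones, had the lowest bright median of any list of 8 or more genes. Of 17 genes 12 were lower and 5 higher, with a median of -0.0552, and -0.0467 without green soybean replicate 3. Hspa1a, the inducible HSP70, scored 0.506, 0.477 and 0.367 with green soybean, against 0.451, 0.730 and 0.703 in controls, a difference of -0.178 (limma adjusted p = 0.546). Hspa8, the constitutive member, differed by -0.174 on 1 probe set and -0.137 on another, with unadjusted p above 0.05 on both. Hspb1, a small heat shock protein, scored 0.502, 0.181 and 0.0996 with green soybean, against 0.544, 0.324 and 0.539 in controls. No bright probe set of this list had an unadjusted p below 0.05. The groups overlapped in Hspa1a and Hspb1. Dnajc13, an endosomal co-chaperone with many probe sets, differed by -0.251 on a dim one and by -0.129 on the lowest of its bright ones.

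Endoplasmic reticulum stress genes, the secretory counterpart, were higher in 10 of 17 bright genes with a median of 0.0236, which was -0.00819 after quantile normalization. Herpud1, of protein export for degradation, differed by 0.118 and Edem1 by 0.0804. All 7 of their probe sets with control mean 0 were higher, with a median of 0.0921. In that class, picked by the authors' p-value, 65.1% of all probe sets were higher, with a median of 0.0766. Among the 7 were Hyou1 at 0.147 and Xbp1 at 0.149, and in Xbp1 the groups overlapped.

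Bright genes of neuronal signalling lay near or below 0, and without green soybean replicate 3 most of their medians were above 0, as was the median of all bright genes, at 0.0302 with 6053 of 8463 higher. Glutamatergic postsynaptic genes were higher in 8 of 23, with a median of -0.0159, and in 12 of 23 without replicate 3. Gria3, an AMPA receptor subunit, scored 1.79, 1.94 and 1.86 with green soybean, against 1.99, 1.86 and 2.00 in controls. Presynaptic vesicle genes were higher in 12 of 24 and, without replicate 3, in 17. Syngr1, synaptogyrin of synaptic vesicles, differed by 0.156 and Syn2, synapsin II, by 0.0965. Sodium and calcium channels were higher in 11 of 25 and, without replicate 3, in 16, and Scn2a scored 1.57 on all 3 green soybean arrays, against 1.68, 1.70 and 1.66 in controls. Potassium channels were higher in 19 of 40, and in 27 without replicate 3. GABA-A receptor subunits were higher in 4 of 9, with Gabra3 at 0.111.

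Signalling and metabolic lists were as near to 0. Insulin and mTOR genes were higher in 10 of 22, with a median of -0.0224 that was 0.0168 without replicate 3. Akt2, a kinase of the insulin pathway, scored 0.921, 0.870 and 0.594 with green soybean, against 0.882, 0.956 and 0.904 in controls. Autophagy and lysosome genes were higher in 13 of 28 (18 without replicate 3), and Ulk1, the kinase that starts autophagy, differed by 0.129. Neurotrophin and growth factor genes were higher in 7 of 18 (13 without replicate 3), with Vegfa at -0.0986. Sterol and fatty acid synthesis genes were higher in 14 of 28 (22 without replicate 3). Circadian clock genes were higher in 9 of 16, and solute carriers in 96 of 155, with Slc25a16, a mitochondrial carrier, at 0.221. Zinc finger proteins were higher in 82 of 155, with a median of 0.00124 that was -0.0129 after quantile normalization.

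**Figure D4:**
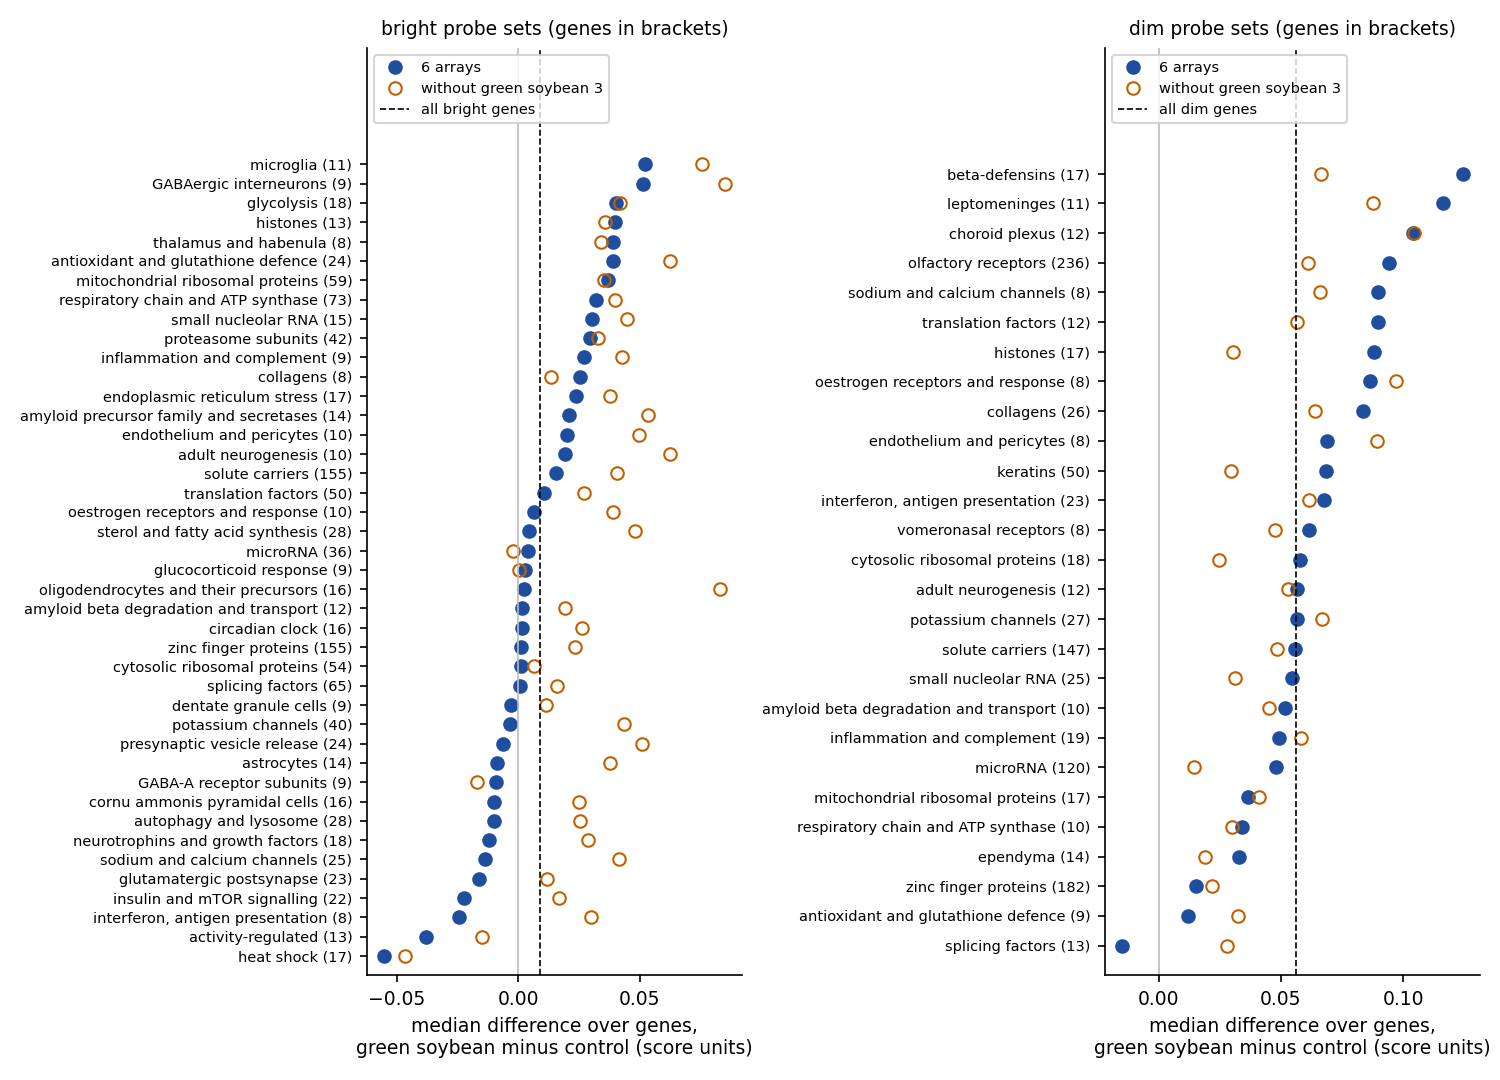
Median difference over genes (score units, green soybean minus control) of each list with 8 or more bright (left) or dim (right) genes; filled points use all 6 arrays, open points leave out green soybean replicate 3, and the dashed line is the median of all bright or all dim genes. Bright medians run from -0.0552 for heat shock genes to 0.0522 for microglia, and dim ones from -0.0150 for splicing factors to 0.124 for beta-defensins.

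Dim probe sets of smallest p were mostly higher with green soybean. Rpl7a, a ribosomal protein, scored -0.0457, 0.0975 and -0.00990 with green soybean, against -0.415, -0.299 and -0.564 in controls, a difference of 0.440 ± 0.0748 (SE) with a limma adjusted p of 0.354. Peg12, an imprinted gene expressed from the paternal copy, scored 0.0366, 0.0653 and 0.192 with green soybean, against -0.202, -0.199 and -0.221 in controls. Ccn4, a matricellular target of Wnt signalling, scored -0.247, -0.201 and -0.341 with green soybean, against -0.603, -0.597 and -0.496 in controls. The groups did not overlap, which held in this direction for 1917 dim probe sets (18.0%).

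Cd300c2, a myeloid receptor, differed by 0.280 and Myocos by 0.290. Nfu1, a scaffold of mitochondrial iron-sulfur clusters, scored 0.602, 0.736 and 0.0169 with green soybean, against -0.372, -0.297 and -0.186 in controls. It differed by 0.737 with a limma adjusted p of 0.461, and by 0.954 with a limma adjusted p of 0.00510 once green soybean replicate 3 was left out, so that array kept it from passing.

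Only 94 dim probe sets were lower at an unadjusted p below 0.05 (0.885%). Pdia4, a disulfide isomerase of the endoplasmic reticulum, scored -0.422, -0.374 and -0.300 on a dim probe set with green soybean, against -0.135, 0.0139 and -0.102 in controls, a difference of -0.291 (limma adjusted p = 0.471). A second probe set of Pdia4 with control mean 0 differed by 0.0921, in the other direction. Myl1, a myosin light chain of fast muscle, differed by -0.296, Tmem252 by -0.260, and Hmcn1, the extracellular hemicentin, by -0.202. In these genes, too, all green soybean arrays lay below all controls, as in 162 dim probe sets (1.52%).

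Several dim gene families are known mainly from tissues outside the brain. Most olfactory receptor probe sets, 786 of 1035, held an exact 0 on at least 1 of the 6 arrays and were not tested. The same held for 167 of 175 vomeronasal receptor and 22 of 40 beta-defensin probe sets, so the counts cover only the rest. Of all dim genes, 5892 of 7638 (77.1%) were higher, with a median of 0.0562, and without green soybean replicate 3, 5705 were. Olfactory receptors, the odorant sensors of the nose, were higher in 201 of 236 genes, with a median of 0.0941 that was 0.0448 after quantile normalization and 0.0609 without green soybean replicate 3. At an unadjusted p below 0.05, 49 were higher and 1 lower, beside 12.0% and 0.885% of all dim probe sets. Olfr571 scored -0.103, -0.156 and -0.0143 with green soybean, against -0.536, -0.310 and -0.372 in controls.

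Beta-defensins, antimicrobial peptides of epithelia, were higher in 17 of 17 genes, with a median of 0.124, and in 14 of 17 without replicate 3. Defb35 scored -0.409, -0.386 and -0.313 with green soybean, against -0.531, -0.717 and -0.730 in controls. Defb13 scored -0.301, -0.0921 and -0.159 with green soybean, against -0.357, -0.486 and -0.485 in controls. Collagens of the extracellular matrix were higher in 26 of 26 dim genes, with a median of 0.0836, and in 23 without replicate 3. Col13a1, a membrane collagen, scored 0.159, 0.125 and 0.228 with green soybean, against 0.0196, -0.0465 and -3.01e-05 in controls. Keratins and keratin-associated proteins were higher in 41 of 50 dim genes and vomeronasal receptors in 6 of 8.

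Dim members of other families are given beside the 77.1% of all dim genes that were higher. Potassium channels were higher in 23 of 27 dim genes, with a median of 0.0564, against 19 of 40 bright ones. Sodium and calcium channels were higher in 7 of 8 dim genes, translation factors in 11 of 12, interferon and antigen presentation genes in 20 of 23 and inflammation and complement genes in 15 of 19. Among the last, Tnf, Cxcl1 and Tgfb1 differed by 0.207, 0.206 and 0.149, while bright members were higher in 5 of 9. Bright interferon and antigen presentation genes were higher in 2 of 8, and in 6 of 8 without replicate 3. Solute carriers were higher in 112 of 147 dim genes.

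Some dim lists lay below the dim median. Zinc finger proteins were lower in 75 of 182, with a median of 0.0152 that was -0.0314 over probe sets after quantile normalization. Splicing factors were higher in 6 of 13, with a median of -0.0150, and antioxidant genes had a median of 0.0121 with 8 of 9 higher. Dim microRNA genes were higher in 76 of 120, with a median of 0.0479, and dim small nucleolar RNA genes in 17 of 25. Dim histone genes were higher in 10 of 17 and dim cytosolic ribosomal genes in 11 of 18.

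The 1357 probe sets whose control mean was 0 need a different reading. Every one had a deposited p-value below 0.005, the largest being 0.00497. No other tested probe set had one below 0.005, and 111 bright and 352 dim ones had none. The 1357 were thus picked out by the authors' p-value, whose test is not stated. Their scores show no level, only the spread around the control mean. Their 361 probe sets at an unadjusted p below 0.05 (26.6%) are a description and carry no test: 287 were higher (21.1%) and 74 lower (5.45%), and the groups did not overlap in 377 upward (27.8%) and 110 downward (8.11%).

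Ptgds, the prostaglandin D synthase of leptomeninges and choroid plexus that carries amyloid beta in cerebrospinal fluid, had the smallest p of this class, with 0.657, 0.401 and 0.650 on green soybean arrays, against -0.0171, -0.0993 and 0.116 on controls. Fggy, a carbohydrate kinase, differed by 0.467, Cntnap3, a neuronal adhesion protein of the contactin-associated family, by 0.355, and Krtap5-3 by 0.458. Olfr91 scored 0.244, 0.247 and 0.226 with green soybean, against -0.0451, 0.0195 and 0.0256 in controls. In the other direction, Ano3 differed by -0.284, Swt1 by -0.250, the nucleolar Snord14e by -0.314, and Ppp2r5c, a regulatory subunit of protein phosphatase 2A, by -0.215.

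Activity-regulated genes with control mean 0 were mostly lower. Of 14 such genes, 13 were lower with green soybean, with a median of -0.264, whereas 675 of all 1057 genes in the class (63.9%) were higher. At an unadjusted p below 0.05, 9 were lower and 0 higher, beside 5.45% and 21.1% of the class. Egr2, a zinc finger transcription factor that neuronal firing induces, scored -0.402, -0.444 and -0.614 with green soybean, against -0.296, 0.245 and 0.0510 in controls. Dusp1, the phosphatase that switches off stress kinases, scored -0.311, -0.328 and -0.543 with green soybean, against -0.259, 0.125 and 0.135 in controls. Nr4a1, a nuclear receptor, scored -0.399, -0.406 and -0.791 with green soybean, against -0.376, 0.216 and 0.160 in controls. The groups did not overlap in these 3 genes, nor in Junb, Fos and Sik1, but control replicate 1 came close to green soybean in each.

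Promoters of Egr2 and Dusp1 are shown because each holds a DNA element, from a pair known to switch on activity-regulated genes. The CArG box, bound by serum response factor, and the cyclic AMP response element TGACGTCA, bound by CREB, are in capitals. Both sequences are from RefSeq on build GRCm38.p6 and run from 250 bases before to 50 after a gene start. That of Egr2 lies at chr10:67537619-67537918 on the plus strand, and that of Dusp1 at chr17:26508423-26508722 on the minus strand.
Egr2: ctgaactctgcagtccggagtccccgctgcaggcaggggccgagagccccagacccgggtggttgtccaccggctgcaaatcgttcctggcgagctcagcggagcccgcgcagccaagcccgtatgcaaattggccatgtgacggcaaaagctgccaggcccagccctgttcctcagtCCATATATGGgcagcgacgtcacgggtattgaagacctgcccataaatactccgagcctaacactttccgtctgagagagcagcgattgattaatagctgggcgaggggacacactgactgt
Dusp1: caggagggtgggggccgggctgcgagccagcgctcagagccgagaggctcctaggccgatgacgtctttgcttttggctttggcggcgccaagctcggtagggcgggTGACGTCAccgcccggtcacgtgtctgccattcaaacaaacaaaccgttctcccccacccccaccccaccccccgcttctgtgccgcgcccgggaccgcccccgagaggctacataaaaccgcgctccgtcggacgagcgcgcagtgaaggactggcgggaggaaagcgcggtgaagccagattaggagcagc
Both strands were searched, and TGACGTCA reads the same on both. Of 26 activity-regulated genes with a promoter in the table, 2 held TGACGTCA (7.69%), Dusp1 and Btg2, against 549 of all 27025 genes (2.03%). The respiratory list held it in 5 of 79 genes (6.33%). A CArG box lay in 2 of the 26 (7.69%), Egr2 and Dusp5, against 488 of all genes (1.81%) and 0 of the 79 respiratory genes. The promoters of Nr4a1 and Junb held neither element, nor did that of another start of Egr2. A match describes these letters in this window and is no measured site.

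The lower scores of activity-regulated genes were uneven across arrays. Among the 14 genes, green soybean replicate 3 was the lowest of its diet in 13 and control replicate 1 the lowest of its diet in 14. Without green soybean replicate 3 the median was -0.157 and 12 of 14 genes were lower. Arc, a cytoskeletal protein of active synapses, scored -0.246, -0.204 and -0.545 with green soybean, against -0.237, 0.153 and 0.0842 in controls, so the groups overlapped through control replicate 1. Npas4, a transcription factor of excited neurons, differed by -0.317, Egr1 by -0.282 and Fos by -0.180. Inhba, a subunit of activin, was the only one higher, at 0.133.

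**Figure D5:**
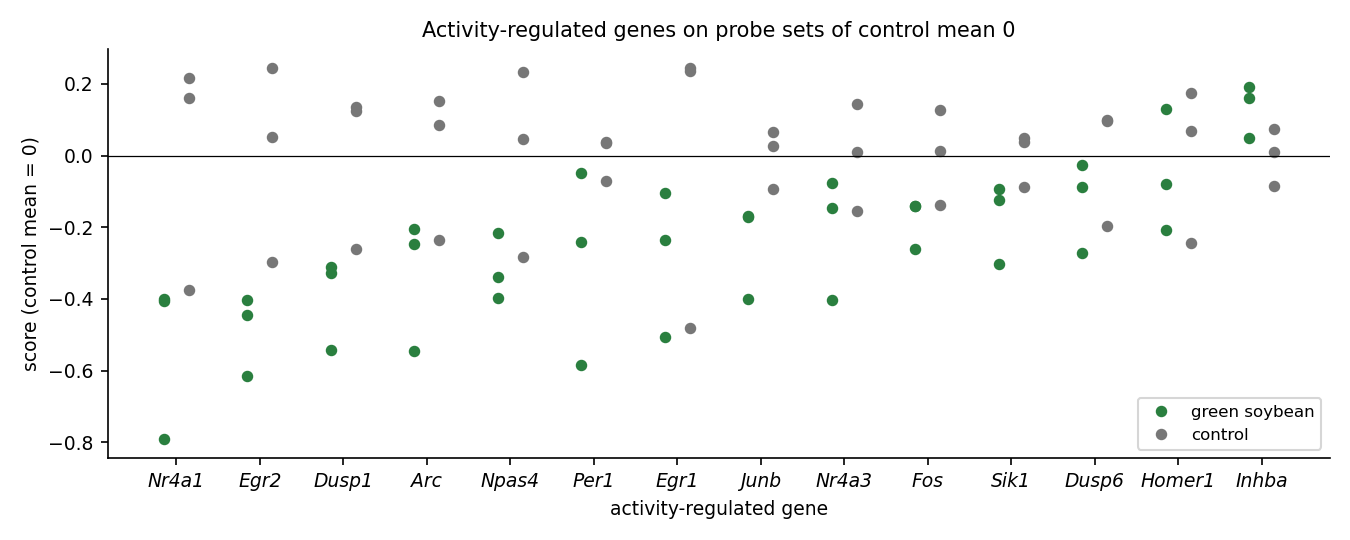
Scores of 14 activity-regulated genes on probe sets whose control mean is 0, with the 3 green soybean arrays left and the 3 control arrays right of each gene's tick. Green soybean points lie below 0 in most genes, and 1 control point, replicate 1, lies below the other controls in every gene.

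Activity-regulated genes outside that class differed by less at the median. The authors' p-value set that split, so these are the members left over for lacking a small one. Their smaller median cannot be told apart from that selection. Among 13 bright ones 11 were lower, with a median of -0.0378, and 0 had an unadjusted p below 0.05. Their mean score was 0.729, 0.682 and 0.542 with green soybean, against 0.592, 0.732 and 0.759 in controls, so the groups overlapped. Without green soybean replicate 3, 7 of 13 were lower. Btg2, an antiproliferative early response gene, scored 0.282, 0.272 and 0.146 with green soybean, against 0.364, 0.428 and 0.304 in controls, with no overlap. Dusp5 differed by -0.141, Fosb by -0.125 and Jun by -0.101. Dim members were higher in 5 of 6, near the 77.1% of all dim genes that were higher. Klf4 scored -0.129, -0.0628 and 0.165 with green soybean, against -0.257, -0.194 and -0.233 in controls, and Ier2 differed by 0.123. Bdnf, the neurotrophin, scored 0.0239, -0.0258 and -0.0188 with green soybean, against -0.169, -0.0280 and 0.00922 in controls.

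Glucocorticoid response genes with control mean 0 were lower in 6 of 6, with a median of -0.190. Pdk4, a kinase that restrains pyruvate use, scored -0.248, -0.221 and -0.397 with green soybean, against -0.0963, -0.124 and 0.220 in controls, and Errfi1 differed by -0.240. The 9 bright genes of this list were even, with 5 higher and a median of 0.00297, and Nr3c1, the glucocorticoid receptor itself, differed by -0.0344.

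Mir181d and Mir181c, neighbouring microRNA genes of 1 family, were both higher with green soybean. A microRNA pairs with its targets through the seed, bases 2 to 8, shown in capitals. The mature sequences, from RefSeq on build GRCm38.p6, are shown because these family members share 1 seed and differ outside it.
mmu-miR-181d-5p: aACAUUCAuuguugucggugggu
mmu-miR-181c-5p: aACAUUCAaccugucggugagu
mmu-miR-181a-5p: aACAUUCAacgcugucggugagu
mmu-miR-181b-5p: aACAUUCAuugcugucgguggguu
Among 1679 mature microRNAs in the table, 4 have the seed ACAUUCA, and these are the 4 printed. Mir181d, whose mature form lies at chr8:84178759-84178781 on the minus strand, had control mean 0 and scored 0.292, 0.288 and 0.437 with green soybean, against 0.0807, -0.00470 and -0.0760 in controls. Mir181c, at chr8:84178924-84178945 on the same strand, was bright and scored 0.377, 0.234 and 0.400 with green soybean, against 0.147, 0.123 and 0.199 in controls. The groups did not overlap in either, and the differences were 0.339 ± 0.0654 and 0.180 ± 0.0614 (SE), with limma adjusted p values of 0.408 and 0.505.

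The other family members were looked up after those values were seen. Mir181b-1, bright, overlapped between the diets, with means of 0.398 with green soybean and 0.390 in controls, a difference of 0.00841 that was -0.0168 after quantile normalization. Mir181a-2 and Mir181b-2 were dim and differed by -0.0392 and -0.0780. Bright microRNA genes together were higher in 21 of 36, with a median of 0.00403 that was -0.0119 after quantile normalization. Mir185 differed by 0.129. Whether these probe sets report mature microRNAs or their longer precursor transcripts was not tested.

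Amyloid genes, the subject of the series title, showed no common direction. Among bright genes of the amyloid precursor family and its secretases 9 of 14 were higher, with a median of 0.0210, and 12 without green soybean replicate 3. Bace1, the beta-secretase, scored 1.28, 1.20 and 1.11 with green soybean, against 1.21, 1.16 and 1.17 in controls. Ncstn, nicastrin of the gamma-secretase, differed by -0.0433 and by 0.0496 without green soybean replicate 3. Bace2, a dim relative of the beta-secretase, scored -0.274, -0.186 and -0.123 with green soybean, against -0.366, -0.308 and -0.431 in controls, and differed by 0.174. App, the precursor itself, had control mean 0 and differed by -0.0290, with overlap between the diets. Aplp1, a precursor relative with control mean 0, scored -0.653, -0.788 and -1.01 with green soybean, against 0.244, -0.713 and 0.469 in controls. Control replicate 2 of Aplp1 thus lay among the green soybean arrays.

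Among bright genes of amyloid beta degradation and transport, 6 were higher and 6 lower, with a median of 0.00168 that was -0.00481 after quantile normalization. Ide, the insulin-degrading enzyme that also cuts amyloid beta, scored 0.774, 0.691 and 0.617 with green soybean, against 0.722, 0.741 and 0.813 in controls. Apoe, the lipid carrier of astrocytes, scored 2.43, 2.51 and 2.51 with green soybean, against 2.51, 2.53 and 2.53 in controls. Ctsb, a lysosomal protease, differed by 0.0724. Neprilysin, Mme, was dim and scored -0.229, -0.289 and -0.198 with green soybean, against -0.321, -0.314 and -0.175 in controls. Of the 10 dim genes 8 were higher, beside 77.1% of all dim genes. Plg, plasminogen, differed by 0.214 and Mmp2 by 0.187.

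Genes that soybean isoflavones are known to engage include the oestrogen receptors and enzymes that clear plant compounds. Of 10 bright oestrogen receptor and response genes 6 were higher, with a median of 0.00652 that was -0.00502 after quantile normalization. Esrra, the oestrogen-related receptor alpha that drives mitochondrial genes, scored 0.352, 0.274 and 0.365 with green soybean, against 0.221, 0.207 and 0.134 in controls, with no overlap, a difference of 0.143 and a limma adjusted p of 0.516. Both oestrogen receptors were dim. Esr2 scored -0.326, -0.398 and -0.331 with green soybean, against -0.447, -0.449 and -0.674 in controls, and Esr1 differed by 0.101. Of 8 dim genes of this list 7 were higher, with a median of 0.0865. Of 10 isoflavone and xenobiotic handling genes, 4 of them bright, 9 were higher, beside 66.0% of all tested genes and 77.1% of dim ones. Another 7 of the 17 probe sets of this list held an exact 0 and were not tested. Ahr, the aryl hydrocarbon receptor, differed by 0.104 and Ephx1, an epoxide hydrolase, by 0.0291.

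Among markers of single cell types, those of microglia and interneurons had the highest bright medians of the lists with 8 or more genes. Microglia, the resident immune cells, were higher in 9 of 11 genes, with a median of 0.0522. Tyrobp, a signalling adaptor, scored 0.633, 0.748 and 0.558 with green soybean, against 0.449, 0.591 and 0.543 in controls, and Tmem119 differed by 0.113 with limma adjusted p = 0.589. GABAergic interneurons were higher in 7 of 9, with a median of 0.0512, and Nos1 differed by 0.137 and Vip by 0.101. Thalamus and habenula were higher in 5 of 8 and endothelium and pericytes in 6 of 10, with an endothelial median of 0.0203 that was -0.0123 after quantile normalization. No bright marker of these lists had an unadjusted p below 0.05.

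Markers of the hippocampal neurons themselves were near 0. Dentate granule cells were higher in 3 of 9, with Stxbp6 at -0.105 and C1ql2 at -0.0828, and pyramidal cells in 7 of 16, with Man1a at -0.185, and in 14 of 16 without green soybean replicate 3. Astrocytes were higher in 6 of 14 and oligodendrocytes in 8 of 16, and without that array in 9 and 15, when 6053 of all 8463 bright genes were higher. Glul, glutamine synthetase of astrocytes, scored 2.23, 2.52 and 2.16 with green soybean, against 2.29, 2.53 and 2.59 in controls. Adult neurogenesis genes were higher in 7 of 10 bright and 11 of 12 dim genes. Stmn1, of growing neurites, differed by 0.0949. With control mean 0, Neurod1 and Ccnd2 differed by -0.177 and -0.132 and Mcm5 by 0.190.

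Leptomeninges and choroid plexus border the hippocampus, and their markers are given beside the shares of all genes in each class. All 7 leptomeningeal markers with control mean 0, Ptgds among them, were higher, with a median of 0.145. In that class, picked by the authors' p-value, 63.9% of all genes were higher. Of 11 dim leptomeningeal markers 9 were higher, with a median of 0.116, beside 77.1% of all dim genes. Of 3 bright ones 2 were higher. Fmod, a matrix proteoglycan, scored 0.426, 0.169 and 0.348 with green soybean, against 0.195, -0.173 and -0.0223 in controls. Dcn, decorin, scored 0.890, 0.865 and 1.60 with green soybean, against 0.798, 0.576 and 1.09 in controls. The groups overlapped in both Fmod and Dcn. The summed share of such tissue in each sample was not measured. Of the 12 dim choroid plexus markers 10 were higher, with a median of 0.104, beside the same 77.1% of all dim genes. Without green soybean replicate 3 these were 12 of 12, beside 5705 of all 7638 dim genes. The mean of the 3 bright choroid plexus markers, Ttr among them, was 1.20, 0.542 and 0.483 with green soybean, against 0.848, 0.331 and 0.563 in controls. It thus varied more within a diet than between diets. The part of such tissue in the differences of Ptgds and Ttr was not tested.

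Markers of other sources were mostly dim. Ependyma had 0 bright markers and its dim genes were higher in 8 of 14. Striatal markers were higher in 3 of 6 bright and 6 of 6 dim genes, and blood cell markers in 4 of 6 dim genes, with Cd3e at 0.132 and Slc4a1 at 0.103.

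Ranked by p over all 22610 probe sets, bright probe sets were under-represented at the top. Among the first 100, 17.0% were bright, 59.0% dim and 24.0% of control mean 0, whereas the tested probe sets were 47.0% bright and 47.0% dim, with 1357 of 22610 of control mean 0, the class set by the authors' p-value. Of those 100, 84 were higher with green soybean and 42.0% had no gene symbol. Among the first 1000, 13.3% were bright and 882 were higher.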

How the data were processed

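Biotin-labelled cRNA was prepared from hippocampal total RNA and hybridized to Affymetrix arrays, 1 sample to an array, per the labels' protocols. The score values were normalized by the authors through the SuperNORM data service, per the labels. The authors also deposited 1 p-value per probe set, with test and comparison not given in the sources used here. That table's 9 value columns match no label and were not used. Other deposited normalization parameters were only summarised, since their 9 column names match no sample. Gene symbols came from the platform annotation.

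Limma 3.58.1, run under R 4.3.3 with lmFit and eBayes, compared the diets on the 6 arrays, with Benjamini-Hochberg adjustment over 22610 probe sets, and the script was tested on simulated data. Single values were compared by two-sided exact permutation over arrays, which for 3 against 3 cannot go below 0.1. A control mean within 1e-06 of 0 put a probe set in that class. Precision is limited by having 3 arrays to a diet, and the standard error of a difference was 0.0637 at the median.

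In each class, the genes named were the 6 higher and 6 lower probe sets of smallest p with exactly 1 non-predicted symbol. The 3 bright ones with the largest difference each way and, per gene list, the 2 bright members of smallest p in the direction of the list's median were added, or dim ones or ones of control mean 0 where fewer than 2 were bright. Other members named, the miR-181 relatives and the promoters shown were chosen after their values were seen. The members and gene lists were chosen with earlier results of these data known. The name patterns for proteasome, histone and microRNA genes were corrected after the data were seen, to drop genes that only share letters. List counts and medians are over genes, with probe sets of a gene averaged, and medians after quantile normalization are over probe sets. Alternatives were quantile normalization, alignment of the arrays' bright-class medians, array weights, an intensity trend and the yellow soybean arrays in the fit. Other splits of level, zeros as missing, a replicate block and each array left out were also run.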

Additional observations from a re-analysis of the deposited data

Results flagged for a closer look

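Outside the tested probe sets, 6 had a score on all 3 green soybean arrays and an exact 0 on all 3 control arrays. They included Car6, a secreted carbonic anhydrase, Psg23, a pregnancy-specific glycoprotein, and Olfr671, an olfactory receptor, and 3 had no symbol. Their scores with green soybean ran from -0.311 to 0.469. The converse, a score on all 3 control arrays and an exact 0 on all 3 green soybean arrays, occurred in 13 probe sets, among them Rbm44, Hmcn1, Mir434 and Spag11b, with scores from -0.738 to 0.114. These signals lay in data that the comparisons did not use, and because an exact 0 was read as no value, no difference was computed.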

How the results depend on the processing

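No probe set passed an adjusted limma p of 0.05 under most settings, but array weights called 3, among them Nfu1, and fitting each class alone called 2. Leaving out 1 array called 0 to 1, the 1 being Uqcrb without green soybean replicate 1 and Nfu1 without green soybean replicate 3. Probe sets of unadjusted p below 0.05 numbered 172 among the brightest of 3 equal parts, and 184 (without control replicate 2) to 533 (without green soybean replicate 2) among bright ones with 1 array left out. Among dim ones they numbered 752 after quantile normalization, with a median difference of 0.00606, and 873 to 1651 with 1 array left out. Among those of control mean 0 they numbered 219 (without control replicate 3) to 421 (without green soybean replicate 2). With the replicate number as a block there were 374 bright, 1375 dim and 360 control-mean-0 probe sets and 0 called. Deviations of same-numbered arrays correlated by 0.158, 0.0169 and 0.0334, and those of differently numbered ones by -0.162 to 0.120. Whether the numbers carry a pairing was not settled by these values. Of 2169 values over 146 named probe sets, 2141 kept direction and side of the threshold, and causes of the others were not tested. Ncstn was 0.0143 with array weights, and Irf3 and Mir181b-1 were -0.00971 and -0.0168 after quantile normalization. With 1 array left out, signs turned within these ranges. Gabrb2 ran from -0.00453 to 0.0620, Ncstn from -0.107 to 0.0496, Ephx1 from -0.0175 to 0.0876, Bhlhe41 from -0.198 to 0.00381 and Irf3 from -0.0122 to 0.0535. Ifngr2 ran from -0.0141 to 0.0732, Pcna from -0.00194 to 0.127, Nptx1 from -0.157 to 0.0258, Acta2 from -0.00397 to 0.126 and Sostdc1 from -0.0564 to 0.182. Fn1 ran from -0.0484 to 0.104, Gpr6 from -0.0129 to 0.0982, Plekhg1 from -0.000646 to 0.130, Mir181b-1 from -0.0605 to 0.0994 and Mir181a-2 from -0.121 to 0.0369.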

Other observations

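MicroRNA genes around Mir127, an imprinted microRNA expressed from the maternal copy and clustered with many others on chromosome 12, were looked up after their values were seen. Within 300 kilobases of Mir127 the sequence table holds 57 microRNA genes, and 34 were on tested probe sets. Of these, 20 were lower with green soybean and the median difference was -0.0721, and without green soybean replicate 3, 22 were lower with a median of -0.0258. The 11 dim ones had a median of -0.0729, with 8 lower, whereas all dim probe sets had a median of 0.0552. The 15 bright ones were even, with 7 lower and a median of 0.00358, and the 8 of control mean 0 had 5 lower.

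Mir127 itself was bright and scored 0.224, 0.223 and 0.0447 with green soybean, against 0.321, 0.395 and 0.380 in controls, with no overlap. The difference was -0.201. Mir136, a dim neighbour, differed by -0.234. Mir434 held an exact 0 on the 3 green soybean arrays and scored -0.557, -0.677 and -0.408 in controls.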
